A study of Mus musculus with 9 samples.

Results

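Cyp4a10, Cyp4a14, Acot1, Vnn1, Plin2, Cd36, Angptl4 and Pdk4 are 8 genes of fatty acid handling that the nuclear receptor PPARA is known to control in fasting. They were followed through 9 RNA-seq libraries of mouse kidney cortex, 3 for each of 3 groups. The 8 were taken by their Entrez gene number from the 17963 genes of the deposited table, and all 8 passed the filter on low counts that left 13954 genes for testing. They were chosen by their measured levels in cisplatin and control kidneys, because several of them stood higher with cisplatin while most genes of fatty acid oxidation stood lower. For that reason the comparison of cisplatin with control is given below as values only, with no test, and nothing is supported with it. The name of the set as genes raised by cisplatin held for 7 of the 8, since Cd36 stood lower in every cisplatin library than in every control library.

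PPARA is a receptor for fatty acids that works as a pair with a retinoid X receptor and turns on genes for the uptake, storage and burning of fat when glucose is short. Its targets in liver and kidney include omega-hydroxylases, thioesterases, lipid droplet proteins and a kinase that shuts off pyruvate dehydrogenase. The proximal tubule of the kidney draws most of its energy from fatty acid oxidation, and cisplatin, a platinum drug used against tumours, injures that segment.

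All mice were labelled as wild type, and their kidneys were sampled on day 4. The YSJZD group had cisplatin by intraperitoneal injection and Yishen Jiangzhuo decoction, a herbal medicine abbreviated YSJZD, by gavage. The cisplatin group had the same drug with pure water by gavage, and the control group had saline by injection with pure water by gavage. The labels and the design text give no strain, sex, age or dose. Nor do they say whether the 3 cortex samples in a group are from 3 separate animals, so the p-values speak only of the spread among the samples sequenced. Library totals lay between 15029286 and 16690482 expected counts.

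Levels of a gene are given as CPM, its counts scaled to the library total after correction by the trimmed mean of M-values (TMM), and levels of different genes are compared only as FPKM, which is per length of transcript. A gene was called when the edgeR quasi-likelihood test gave an adjusted p under 0.05 over all 13954 genes. The stated reason for the choice rests on cisplatin and control libraries, but the 8 genes were chosen with earlier results of these data known. Both YSJZD comparisons also share the cisplatin or the control libraries with that choice, so their tests are not independent of it. At this threshold 35.4% of all tested genes were called between YSJZD and cisplatin, 17.4% higher and 18.0% lower. Between YSJZD and control 19.3% were called, 9.93% higher and 9.37% lower, and 54.6% were called between cisplatin and control, 28.6% higher and 26.0% lower. With library totals in place of TMM, genes called higher made up 75.4% of the calls between YSJZD and control, against 51.4% with TMM. For cisplatin and control that share was 66.1%, against 52.4% with TMM. That scaling moved the median log2 fold change of all genes to 0.20 between YSJZD and control and to 0.27 between cisplatin and control, against 0.01 and 0.04 with TMM.

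A pair of libraries stood apart within their groups. Cisplatin replicate 3 differed more from the other 2 cisplatin libraries, with a chi-square per degree of freedom of 81.8 and 88.8, than those did from each other, at 41.8. It had the highest Pdk4, Cd36, Angptl4, Plin2 and Acot1 of its group and the lowest Cyp4a14 and Vnn1. YSJZD replicate 1 carried adipocyte transcripts. The summed level of 7 adipocyte markers was 28.4 CPM there, against 0.919 and 0.415 CPM in the other YSJZD libraries. It was 4.99 to 11.8 CPM in cisplatin libraries and at most 0.583 CPM in control libraries. Most of the cisplatin sums came from Cidec, with 4.72, 6.74 and 7.32 CPM, which is also listed below among PPARA targets and lipid droplet genes. In YSJZD replicate 1 Cidec had 6.42 CPM, and Cfd had 15.5 CPM. Cisplatin replicate 3 also carried other adipocyte transcripts at low levels, with Cfd at 2.17 CPM and Adipoq at 0.931 CPM. In the other 2 cisplatin libraries Cfd was at 0 and Adipoq was at most 0.0571 CPM. Values without 1 or the other of these libraries are given below for Cyp4a14, Plin2, Cd36 and Pdk4.

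Against cisplatin alone, the decoction group split the 8 genes. Cyp4a10, Vnn1 and Cd36 were higher in YSJZD kidneys, Plin2 and Pdk4 were lower, and Cyp4a14, Acot1 and Angptl4 were not called. Thus 5 of the 8 were called, against 35.4% of all tested genes, and 3 of 8 were called when YSJZD replicate 1 or YSJZD replicate 3 was left out. Against control, 7 were higher in YSJZD kidneys and Cd36 was lower, so that all 8 were called, against 19.3% of all tested genes. No member's YSJZD libraries overlapped the control libraries, but the share of all tested genes separated in this way is not given here.

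**Figure D1:**
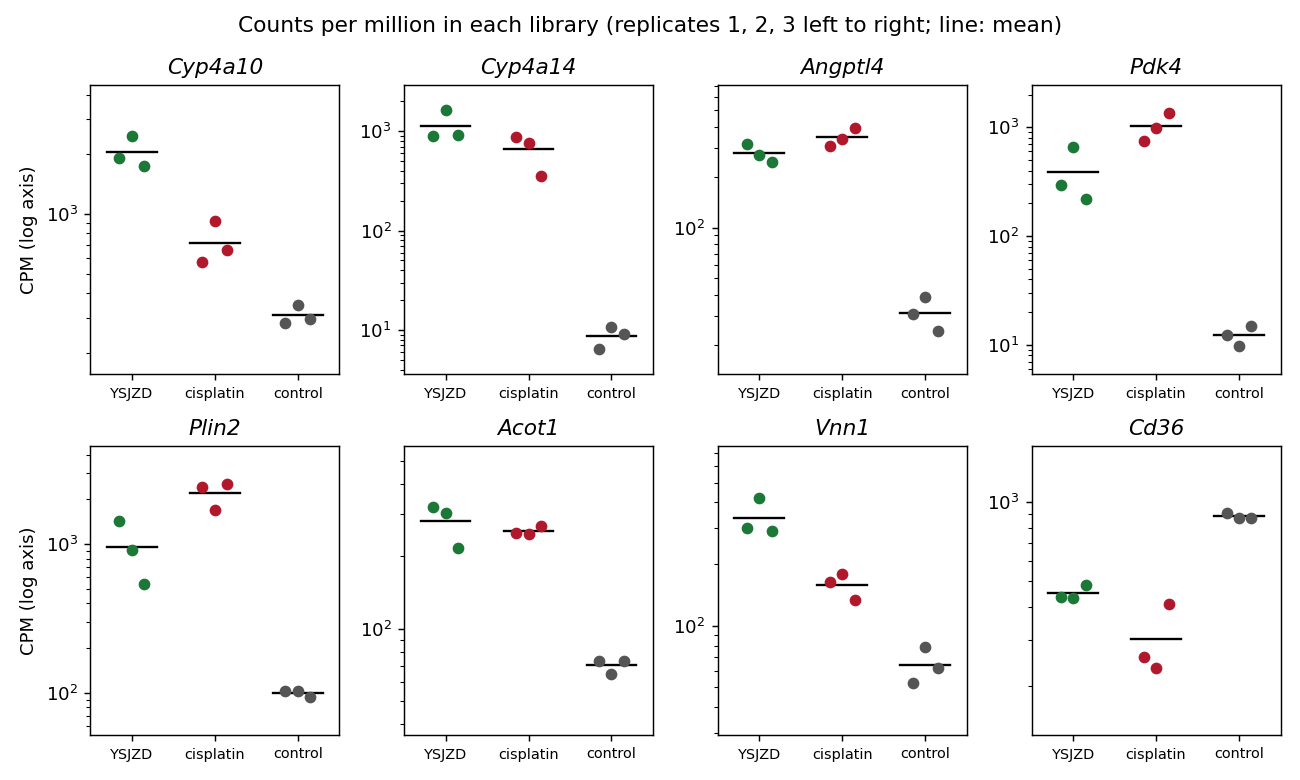
CPM of the 8 genes in each library on log axes, with YSJZD, cisplatin and control from left to right in each panel, a point for each of 3 libraries and a line at the mean. Cyp4a10 lies between 1744 and 2487 CPM in YSJZD and between 572 and 922 CPM in cisplatin, whereas Plin2 and Pdk4 lie lower in YSJZD than in cisplatin and Cd36 is highest in control.

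Cyp4a10 and Cyp4a14 encode microsomal cytochromes P450 that hydroxylate fatty acids at their omega end. Cyp4a10 had 1912, 2487 and 1744 CPM in the YSJZD libraries, 572, 922 and 659 CPM in the cisplatin libraries, and 281, 348 and 297 CPM in the control libraries. The 3 groups did not overlap and stood in the order YSJZD, cisplatin, control. Cyp4a10 was higher in YSJZD than in cisplatin by 1.51 ± 0.21 on the log2 scale (standard error, edgeR adjusted p = 0.000725) and higher than in control by 2.73 ± 0.22 (edgeR adjusted p = 6.83e-05). Its log2 difference between cisplatin and control was 1.22 ± 0.21.

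Cyp4a14 was nearly silent in control kidneys. It had 887, 1620 and 904 CPM in the YSJZD libraries, 868, 768 and 353 CPM in the cisplatin libraries, and 6.48, 10.7 and 9.21 CPM in the control libraries. The YSJZD and cisplatin groups were separated on this scale by the narrow gap between 887 and 868 CPM, and they overlapped as FPKM. The log2 difference between YSJZD and cisplatin was 0.78 ± 0.35 (edgeR adjusted p = 0.106). It was 0.47 ± 0.29 without cisplatin replicate 3. Against control, Cyp4a14 was higher in YSJZD by 7.01 ± 0.46 (edgeR adjusted p = 3.89e-05), the largest change among the 8 in that comparison. Cisplatin libraries stood 6.23 ± 0.44 above control.

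The Cyp4a genes are near copies of each other, and reads can be divided between them by estimate. Of the 50-base windows in the Cyp4a10 transcript, 30.5% also occurred in another gene, Cyp4a32 or Cyp4a31, against 0.245% for Cyp4a14. The summed level of Cyp4a10, Cyp4a31 and Cyp4a32, which does not depend on how reads are divided among the 3, was 2032 to 2771 CPM in YSJZD, 784 to 1099 CPM in cisplatin and 378 to 459 CPM in control, again without overlap. The paralogs Cyp4a12a and Cyp4a12b had other orders of the groups. Cyp4a12a averaged 411 ± 53.8 CPM in YSJZD, 98.3 ± 59.5 CPM in cisplatin and 1073 ± 119 CPM in control (SD, n = 3 each), so this paralog was higher in YSJZD than in cisplatin by 2.06 ± 0.36 (edgeR adjusted p = 0.00223) but lower than in control by 1.38 ± 0.36 (edgeR adjusted p = 0.0227). Cyp4a12b averaged 47.8 ± 19.4 CPM in YSJZD, 73.5 ± 21.4 CPM in cisplatin and 3.72 ± 0.892 CPM in control.

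Acot1 and Vnn1 act on coenzyme A. Acot1 is a cytosolic thioesterase that splits long-chain acyl-CoA into free fatty acid and coenzyme A. It had 322, 304 and 217 CPM in the YSJZD libraries, 251, 248 and 267 CPM in the cisplatin libraries, and 73.0, 64.9 and 73.0 CPM in the control libraries. The YSJZD and cisplatin groups overlapped, and both lay well clear of control. The log2 difference between YSJZD and cisplatin was 0.14 ± 0.16 (edgeR adjusted p = 0.525), and Acot1 was higher in YSJZD than in control by 2.00 ± 0.16 (edgeR adjusted p = 6.75e-05). Cisplatin libraries stood 1.86 ± 0.16 above control. Acot1 shared 33.2% of its 50-base windows with other genes, mainly Acot2, and the sum of Acot1 and Acot2 was 308 to 475 CPM in YSJZD, 354 to 412 CPM in cisplatin and 92.5 to 96.8 CPM in control.

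Vnn1 is a membrane-bound pantetheinase, which cleaves pantetheine from the breakdown of coenzyme A into pantothenate and cysteamine. It had 300, 421 and 290 CPM in the YSJZD libraries, 163, 179 and 134 CPM in the cisplatin libraries, and 52.8, 78.9 and 62.3 CPM in the control libraries. As for Cyp4a10, the groups formed 3 separate steps with YSJZD at the top. Vnn1 was higher in YSJZD than in cisplatin by 1.09 ± 0.20 (edgeR adjusted p = 0.00284) and higher than in control by 2.38 ± 0.21 (edgeR adjusted p = 0.000107). Cisplatin libraries stood 1.29 ± 0.20 above control. None of its 50-base windows occurred in another gene's transcript.

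Plin2 coats lipid droplets and is stabilised by them. It had 1430, 920 and 538 CPM in the YSJZD libraries, 2425, 1696 and 2551 CPM in the cisplatin libraries, and 103, 103 and 94.2 CPM in the control libraries. Every YSJZD library lay below every cisplatin library and above every control library, with a wide spread inside the YSJZD group. Plin2 fell by 1.21 ± 0.31 on the log2 scale in YSJZD against cisplatin (edgeR adjusted p = 0.0126) and was higher than in control by 3.27 ± 0.33 (edgeR adjusted p = 0.000204). Cisplatin libraries stood 4.47 ± 0.35 above control. The YSJZD library with the most Plin2 was replicate 1, the one with adipocyte transcripts, and without it the difference from cisplatin was -1.61 ± 0.27 (edgeR adjusted p = 0.00275). Without cisplatin replicate 3 it was -1.11 ± 0.33 (edgeR adjusted p = 0.0277).

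Cd36 takes long-chain fatty acids into cells and also serves as a scavenger receptor. It had 436, 432 and 486 CPM in the YSJZD libraries, 259, 236 and 410 CPM in the cisplatin libraries, and 908, 871 and 869 CPM in the control libraries. It was the only member of the 8 with its highest level in control, and the YSJZD libraries lay between the other 2 groups. Cd36 was higher in YSJZD than in cisplatin by 0.58 ± 0.20 (edgeR adjusted p = 0.0425), a call that was lost on leaving out any of 5 of the 6 libraries compared, with adjusted p up to 0.14. Without cisplatin replicate 3, which had the highest Cd36 of its group, the difference was 0.86 ± 0.14 (edgeR adjusted p = 0.00177). Cd36 fell by 0.97 ± 0.20 in YSJZD against control (edgeR adjusted p = 0.00815), and cisplatin libraries stood 1.55 ± 0.20 lower than control.

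Cd36 and Plin2 are also made outside the tubule, by macrophages, endothelium and fat cells. The summed level of 13 macrophage markers was 148 to 169 CPM in YSJZD, 330.3 to 964 CPM in cisplatin and 154 to 197 CPM in control, and that of 8 endothelial markers was 213 to 254 CPM in YSJZD, 250 to 566 CPM in cisplatin and 386 to 476 CPM in control. Cisplatin replicate 3, with the highest Cd36 of its group, had its lowest macrophage and endothelial sums. Its adipocyte sum was the highest of the group, at 11.8 CPM, of which Cidec made up 7.32 CPM. Cisplatin replicates 1 and 2 had adipocyte sums of 4.99 and 7.08 CPM. The part of these cells in the 2 genes' differences was not tested, and in bulk tissue fewer cells of a type and less RNA per cell cannot be told apart.

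Angptl4 is a secreted inhibitor of lipoprotein lipase, the enzyme that frees fatty acids from circulating triglyceride. It had 315, 273 and 246 CPM in the YSJZD libraries, 306, 338 and 393 CPM in the cisplatin libraries, and 30.5, 38.8 and 24.2 CPM in the control libraries. The YSJZD and cisplatin libraries overlapped on this scale, and both groups lay far above control. As FPKM they did not overlap, with 149 to 185 in YSJZD and 194 to 224 in cisplatin. The log2 difference between YSJZD and cisplatin was -0.32 ± 0.18 (edgeR adjusted p = 0.207), and Angptl4 was higher in YSJZD than in control by 3.15 ± 0.20 (edgeR adjusted p = 3.89e-05). Cisplatin libraries stood 3.47 ± 0.20 above control.

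Pdk4 phosphorylates and shuts off pyruvate dehydrogenase, which spares glucose when fatty acids are burned. It had 297, 656 and 218 CPM in the YSJZD libraries, 741, 988 and 1361 CPM in the cisplatin libraries, and 12.4, 9.69 and 14.97 CPM in the control libraries. The 3 groups did not overlap, and YSJZD replicate 2 lay near the lowest cisplatin library. Pdk4 fell by 1.4 ± 0.38 in YSJZD against cisplatin (edgeR adjusted p = 0.0174) and was higher than in control by 4.98 ± 0.45 (edgeR adjusted p = 0.000109). Cisplatin libraries stood 6.38 ± 0.48 above control. The call against cisplatin was lost without YSJZD replicate 1 (-1.23, adjusted p = 0.0587) or YSJZD replicate 3 (-1.11, adjusted p = 0.0554), and it sat at the threshold without cisplatin replicate 3 (-1.15 ± 0.40, adjusted p = 0.05). Without YSJZD replicate 2 the differences moved to -1.99 from cisplatin and 4.38 from control.

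**Figure D2:**
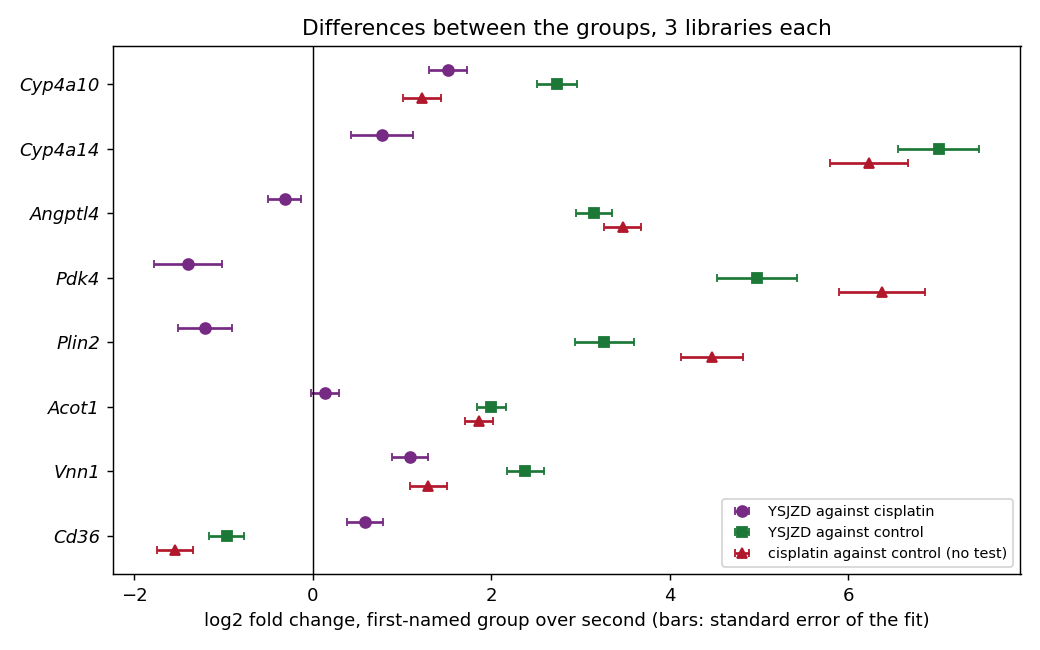
Log2 fold changes of the 8 genes between the groups, with the first-named group over the second and bars of 1 standard error of the fit. Against cisplatin, YSJZD lies to the right of zero for Cyp4a10 (1.51) and Vnn1 (1.09) and to the left for Pdk4 (-1.4) and Plin2 (-1.21), and cisplatin against control is shown without a test.

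For 4 of the 8 genes, Plin2, Cd36, Pdk4 and Acot1, a promoter window of 300 bases was at hand, 250 before the annotated start and 50 after it, from RefSeq on GRCm38.p6. All 4 windows at hand are shown. The 4 genes took different courses between the groups: Plin2 and Pdk4 lower, Cd36 higher and Acot1 not called in YSJZD against cisplatin. The windows lie at chr4:86670010-86670309 on the minus strand for Plin2, chr5:17835847-17836146 on the minus strand for Cd36, chr6:5496229-5496528 on the minus strand for Pdk4 and chr12:84009252-84009551 on the plus strand for Acot1. Each is written 5′ to 3′ in the direction of the gene, with every match to a searched motif in capitals.
Plin2: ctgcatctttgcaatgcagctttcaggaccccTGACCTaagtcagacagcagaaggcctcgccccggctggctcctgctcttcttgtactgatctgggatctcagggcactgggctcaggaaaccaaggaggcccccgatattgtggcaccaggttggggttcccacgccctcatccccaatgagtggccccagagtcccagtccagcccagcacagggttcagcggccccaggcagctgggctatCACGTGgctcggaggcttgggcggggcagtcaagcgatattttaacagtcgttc
Cd36: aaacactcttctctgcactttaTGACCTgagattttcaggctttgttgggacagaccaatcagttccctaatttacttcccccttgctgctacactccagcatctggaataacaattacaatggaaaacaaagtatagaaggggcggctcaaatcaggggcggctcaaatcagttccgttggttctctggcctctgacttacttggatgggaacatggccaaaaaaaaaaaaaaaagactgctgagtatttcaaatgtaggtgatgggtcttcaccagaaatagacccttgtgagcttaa
Pdk4: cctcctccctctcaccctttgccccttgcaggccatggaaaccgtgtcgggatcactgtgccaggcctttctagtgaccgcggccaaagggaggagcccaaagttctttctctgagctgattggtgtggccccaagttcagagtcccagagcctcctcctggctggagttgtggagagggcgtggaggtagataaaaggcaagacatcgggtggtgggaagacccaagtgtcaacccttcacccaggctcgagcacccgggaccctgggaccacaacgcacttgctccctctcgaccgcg
Acot1: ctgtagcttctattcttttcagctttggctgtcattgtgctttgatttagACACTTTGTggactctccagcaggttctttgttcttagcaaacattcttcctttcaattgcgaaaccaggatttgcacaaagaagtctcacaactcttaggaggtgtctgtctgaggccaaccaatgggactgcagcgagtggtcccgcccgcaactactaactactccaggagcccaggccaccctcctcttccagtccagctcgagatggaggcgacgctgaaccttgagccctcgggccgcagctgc

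Both strands were searched for 4 motifs. The arrangement that PPAR and retinoid X receptors bind is AGGNCA followed, after any single base, by AGGNCA again, and it was in none of the 4 windows and in 0.381% of 32851 RefSeq promoter windows of the same length. Its 6-base core AGGTCA was found on the reverse strand of the Plin2 window, 218 bases before the start, and of the Cd36 window, 228 bases before the start. That core occurs in 16.3% of all windows. ACGTG, the core bound by hypoxia-inducible factors, was on both strands of the Plin2 window in 2 overlapping matches 4 and 3 bases before the start, and is in 19.6% of all windows. ACANNNTGT, a core bound by steroid receptors, was in the Acot1 window 200 bases before the start, and is in 6.85% of all windows. Pdk4 had no match. These matches describe the letters of the windows, and a missing match says only that these letters are not in this stretch.

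Per length of transcript, the genes changed places between the groups. In YSJZD kidneys Cyp4a10 led with 1094 ± 186 FPKM, ahead of Plin2 with 578 ± 265 and Cyp4a14 with 504 ± 176 FPKM, whose ranges overlapped. Acot1, Cd36, Vnn1, Angptl4 and Pdk4 followed with means of 206 down to 122 FPKM, each overlapping its neighbour. In cisplatin kidneys Plin2 led with 1380 ± 256 FPKM, clear of Cyp4a10 with 396 ± 108 FPKM, and Vnn1 was last with 81.5 ± 15.7 FPKM. In control kidneys Cd36 led with 295 ± 10.4 FPKM, followed by Cyp4a10 with 145 ± 20.2 FPKM. Cyp4a14 with 3.49 ± 0.960 and Pdk4 with 3.42 ± 0.852 FPKM were last there and overlapped (SD, n = 3 for each value). Thus the first place went to a different gene in each group.

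**Figure D3:**
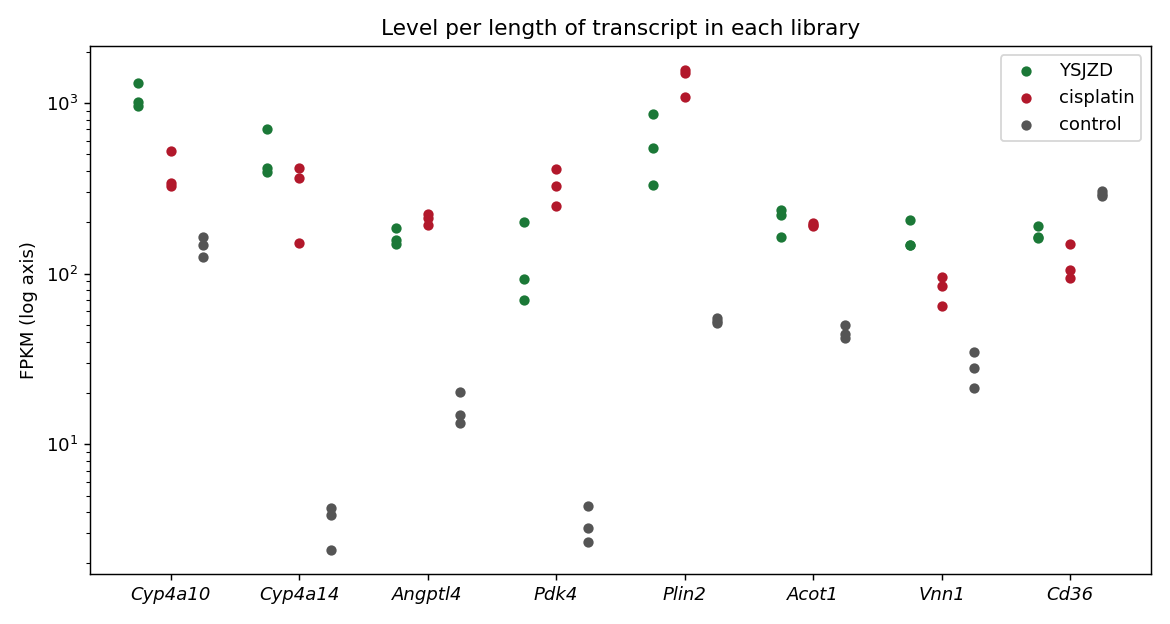
FPKM of the 8 genes on a log axis, a point for each library, with YSJZD, cisplatin and control from left to right for each gene. Cyp4a10 leads in YSJZD with a mean of 1094 FPKM, Plin2 in cisplatin with 1380 FPKM and Cd36 in control with 295 FPKM.

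A ratio of 2 genes within a library does not depend on how libraries are scaled to each other. The FPKM ratio of Cyp4a10 to Plin2 was 1.19, 2.40 and 2.89 in the YSJZD libraries, 0.210, 0.479 and 0.228 in the cisplatin libraries, and 2.43, 3.00 and 2.80 in the control libraries. Every YSJZD library lay above every cisplatin library, and 1 of them, replicate 3, lay within the control range. The ratio of Cyp4a10 to Pdk4 was 10.99, 6.47 and 13.6 in YSJZD, 1.32, 1.59 and 0.826 in cisplatin, and 38.6, 61.4 and 33.9 in control, so that YSJZD lay between the other groups. The ratio of Pdk4 to Plin2 was 0.108, 0.371 and 0.212 in YSJZD, 0.159, 0.301 and 0.276 in cisplatin, and 0.0628, 0.0489 and 0.0827 in control. Here the YSJZD and cisplatin libraries overlapped, and both groups lay above control.

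**Figure D4:**
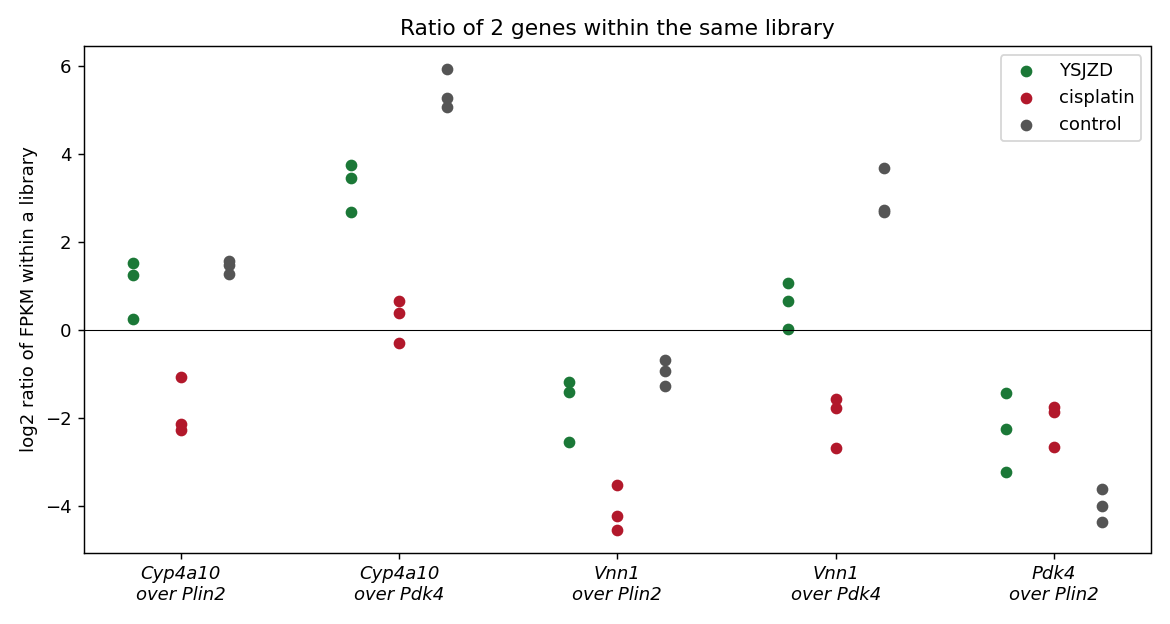
Log2 ratio of the FPKM of 2 genes within the same library, a point for each library, for 5 pairs of genes, with YSJZD, cisplatin and control from left to right. The ratios of Cyp4a10 and Vnn1 to Plin2 and to Pdk4 are higher in every YSJZD library than in every cisplatin library, while the ratio of Pdk4 to Plin2 overlaps between these groups.

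Of 5 PPAR and RXR genes tested, 1 was called in YSJZD against control and none in YSJZD against cisplatin, beside 35.4% of all tested genes. None of the 5 had an unadjusted edgeR p under 0.05 against cisplatin. A share of 1 in 5 is near the 19.3% of all tested genes called in YSJZD against control. Ppara had 147, 185 and 174 CPM in the YSJZD libraries, 188, 171 and 108 CPM in the cisplatin libraries, and 113, 97.1 and 105 CPM in the control libraries. Ppara was higher in YSJZD than in control by 0.69 ± 0.20 (edgeR adjusted p = 0.037), while its log2 difference between YSJZD and cisplatin was 0.12 ± 0.20 (edgeR adjusted p = 0.67). Ppard, Pparg and Rxra were called in neither comparison, and Pparg was scarce, with 0.645 ± 0.469 CPM in YSJZD and 1.10 ± 0.392 CPM in cisplatin. Of 13 coregulators, 2 were higher in YSJZD than in cisplatin and none was lower, also at an unadjusted edgeR p under 0.05, a count near the 17.4% of all tested genes called higher. These were Ppargc1a, a coactivator of mitochondrial genes, with 34.5 ± 6.73 CPM in YSJZD and 14.4 ± 2.59 CPM in cisplatin (log2 difference 1.26 ± 0.22, edgeR adjusted p = 0.00228), and Ppargc1b, with a log2 difference of 0.79 ± 0.16 (edgeR adjusted p = 0.00472).

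Of 53 other known targets of PPARA that were tested, 21 were higher in YSJZD than in cisplatin and 6 were lower, with a median log2 difference of 0.41, against -0.01 for all genes. Background shares were 17.4% higher and 18.0% lower. Retsat, a retinol saturase, was higher by 2.04 ± 0.20 (edgeR adjusted p = 0.000117). Hilpda, a lipid droplet protein that inhibits lipolysis, fell to 3.08 ± 1.14 CPM in YSJZD, against 26.8 ± 2.73 CPM in cisplatin (edgeR adjusted p = 5.71e-05). Cpt1a and Ehhadh, textbook targets that were named after their values were seen, were called in neither YSJZD comparison, with log2 differences from cisplatin of 0.03 ± 0.14 and 0.23 ± 0.20. Against control, 21 of the 53 were higher in YSJZD and 6 were lower, beside background shares of 9.93% and 9.37%.

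Most mitochondrial enzymes that burn fatty acids were higher with the decoction than with cisplatin alone. Of 29 genes of mitochondrial fatty acid oxidation, 20 were higher in YSJZD than in cisplatin and none was lower, beside 17.4% and 18.0% of all tested genes, with a median log2 difference of 0.70. At an unadjusted edgeR p under 0.05, 22 were higher and 0 lower. Cpt2, the inner membrane carnitine palmitoyltransferase, had 290.0 ± 22.3 CPM in YSJZD and 130 ± 16.3 CPM in cisplatin (log2 difference 1.16 ± 0.14, edgeR adjusted p = 0.000263). Acad10, an acyl-CoA dehydrogenase family member, was higher by 1.84 ± 0.20, and Pccb, a subunit of propionyl-CoA carboxylase, by 1.20 ± 0.15. Of 20 peroxisomal genes 9 were higher and 1 was lower, led by Amacr, a racemase of branched fatty acids, with 112 ± 22.5 CPM in YSJZD and 21.3 ± 4.22 CPM in cisplatin. In cisplatin against control the median log2 differences of the 2 lists were -0.69 and -0.32, which the choice of the 8 genes refers to. In YSJZD against control, 5 mitochondrial genes were higher and 7 lower with a median of -0.06, and with library totals 9 were higher and 4 lower with a median of 0.13, so the direction of that list depends on the scaling.

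Ketone body genes were divided. Of 8 genes, 5 were higher in YSJZD than in cisplatin, beside 17.4% higher and 18.0% lower of all tested genes. They were led by Bdh1, Oxct1 and Acat1, which interconvert and use ketone bodies, by 2.70 ± 0.25, 1.89 ± 0.25 and 2.03 ± 0.28. Another 2 were lower, among them Slc16a6, a monocarboxylate transporter family member named after its values were seen, with a log2 difference of -1.28 ± 0.21. Against control, 2 of the 8 were higher in YSJZD and 3 were lower, beside 9.93% and 9.37% of all tested genes. Bdh1, Oxct1 and Acat1 were lower there, with log2 differences of -1.42 ± 0.24, -1.42 ± 0.24 and -1.67 ± 0.28.

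Around Plin2, 6 of 17 other lipid droplet and lipolysis genes were higher in YSJZD than in cisplatin and 3 were lower, beside 17.4% and 18.0% of all tested genes, so that the count of lower genes was at the background. Pnpla2, the triglyceride lipase also called ATGL, fell to 180 ± 28.2 CPM in YSJZD, against 547 ± 79.3 CPM in cisplatin (edgeR adjusted p = 0.000119), whereas Mgll, the monoglyceride lipase that completes the breakdown, was higher by 1.00 ± 0.17. Around Cd36, 6 of 18 uptake genes were higher and 5 lower, beside the same background. Slc27a2, a fatty acid transport protein of the proximal tubule, averaged 2455 ± 632 CPM in YSJZD and 858 ± 27.98 CPM in cisplatin, and Scarb1 and Scarb2, relatives of Cd36, were lower by -1.57 ± 0.18 and -0.97 ± 0.14.

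Around Pdk4, 10 of 13 genes of the pyruvate dehydrogenase complex, its kinases and phosphatases and the pyruvate carrier were higher in YSJZD than in cisplatin and none was lower, beside 17.4% and 18.0% of all tested genes, with a median log2 difference of 0.66. That count was 6 without cisplatin replicate 3, and 1 gene was lower at an unadjusted edgeR p under 0.05. Pdk3, another kinase of the complex, was higher by 0.88 ± 0.14 (edgeR adjusted p = 0.00117), the direction opposite to Pdk4, and Pdp2, a phosphatase that reverses the kinases, by 1.14 ± 0.15. Around Vnn1, 7 of 12 genes of coenzyme A turnover were higher and none was lower (8 and 0 at an unadjusted edgeR p under 0.05), led by Nudt19, a peroxisomal coenzyme A hydrolase, with 488 CPM in YSJZD and 83.5 CPM in cisplatin on average (log2 difference 2.55 ± 0.27). Against control, 8 of the 13 pyruvate genes and 5 of the 12 coenzyme A genes were lower in YSJZD, beside 9.37% of all tested genes, counts that were 4 and 3 with library totals. Vnn1 itself was higher there. The lists overlap with one another in part.

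**Figure D5:**
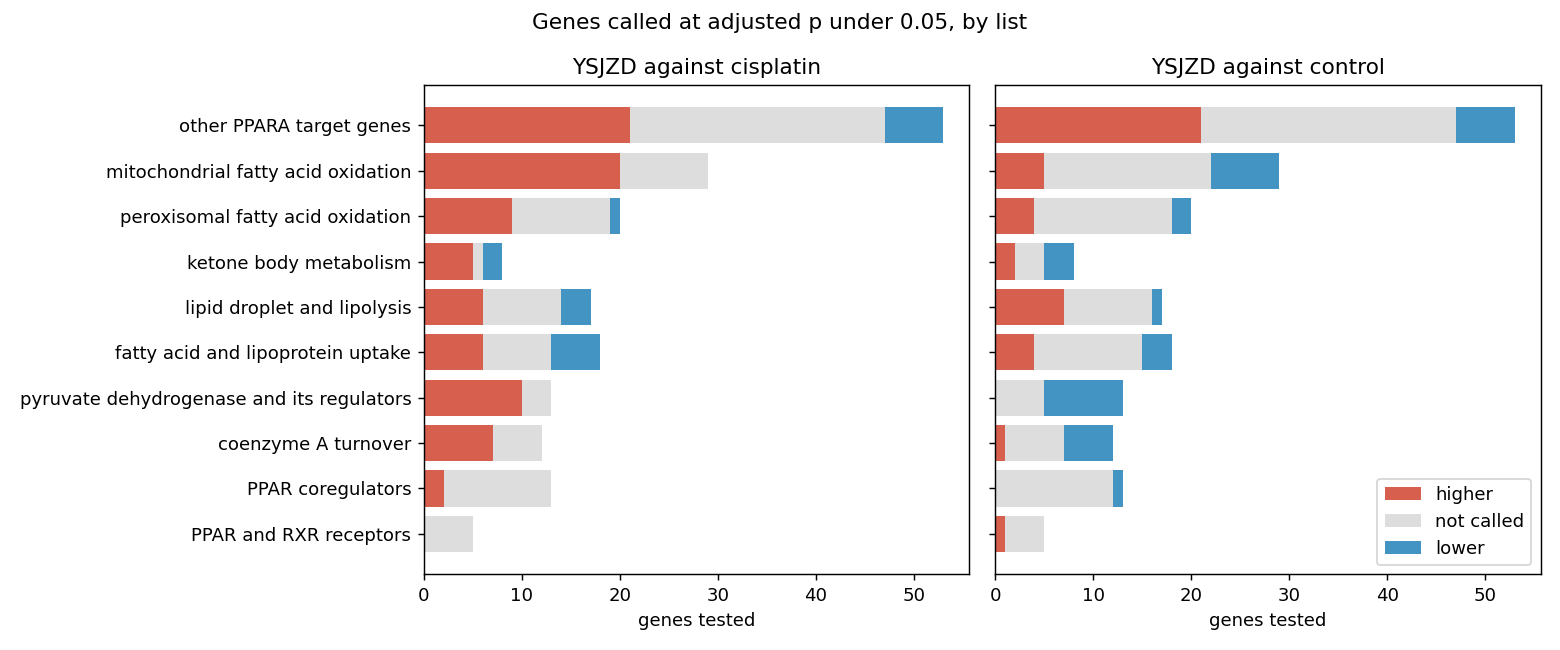
Number of tested genes called higher, not called and called lower at an adjusted p under 0.05 in 10 lists, for YSJZD against cisplatin at the left and YSJZD against control at the right. In YSJZD against cisplatin 20 of 29 mitochondrial fatty acid oxidation genes are higher, and in YSJZD against control 8 of 13 pyruvate dehydrogenase genes are lower.

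Proximal tubule markers, which a sample of kidney cortex should hold, were found in all 3 groups. The summed level of 13 of them was 7704 to 16480 CPM in YSJZD, 2072 to 3005 CPM in cisplatin and 28110 to 31380 CPM in control. All 13 were called higher in YSJZD than in cisplatin, beside 17.4% of all tested genes. That count was 11 without cisplatin replicate 3 and 12 with library totals. None of the 13 was at 0 in a group. The 7 members that stood higher in cisplatin than in control thus did so in libraries with the lowest tubule sum, and Cyp4a10, Vnn1 and the oxidation genes were higher in YSJZD where the tubule sum was higher too. Within the YSJZD group, replicate 2 had the highest tubule sum and also the highest Cyp4a10, Vnn1, Cyp4a14 and Pdk4. Of these, Pdk4 was lower in YSJZD than in cisplatin. The lowest tubule sum and the lowest Cyp4a14 were in replicate 1, and the lowest Cyp4a10, Vnn1 and Pdk4 were in replicate 3. The part of tubule content in these results was not tested. Slc27a2 is counted both in this list and among the uptake genes.

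By likeness of profile over the 9 libraries, as the root-mean-square difference in log2 CPM relative to the control mean among 10372 genes, Cyp4a10 and Vnn1 shared their nearest genes. These were Npl, a lyase of sialic acid, and Folh1, a carboxypeptidase, at 0.484 and 0.515 from Cyp4a10 and 0.308 and 0.360 from Vnn1. Cyp4a10 and Vnn1 themselves lay 0.261 apart, closer than any other pair of members. Among the genes nearest to Cyp4a14 was Eda2r, a receptor of the TNF receptor family, at 0.913, and nearest to Plin2 were Maff, a small Maf transcription factor, at 0.326 and Akr1b8, an aldo-keto reductase, at 0.330. Angptl4 lay nearest to Cebpb, a transcription factor, at 0.380. Pdk4 lay nearest to Fga, the fibrinogen alpha chain, at 0.526 and to Cd14, a co-receptor for bacterial lipopolysaccharide, at 0.598. Acot1 lay nearest to Slc6a18, an amino acid transporter, at 0.161 and to Tnfrsf1a, a receptor for TNF, at 0.217. Cd36 lay nearest to Lap3, an aminopeptidase, at 0.153 and to Ogfod3 at 0.167.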

How the data were processed

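Per the labels, total RNA from 50 mg of kidney was sequenced by BGI on a DNBSEQ platform. The table that the authors deposited lists 58075 RefSeq transcripts. Its read count columns hold expected counts by RSEM 1.3.1, per the submitters' processing notes, which also name DESeq2 1.4.5 and, although the samples are from mice, the human build GRCh38. No aligner or mouse build is given in the labels or the file. The other deposited columns were read as FPKM from their values, since they imply 0.931 to 0.938 of the annotated transcript length and their sums differ between libraries.

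Expected counts were summed per Entrez gene and rounded. Of the gene counts, 16.5% to 19.3% per library were not whole before rounding (tolerance 0.005). All 9 libraries were fitted in edgeR 4.0.16 (R 4.3.3) with filterByExpr, TMM and a quasi-likelihood fit by group. The filter removed 4009 genes. P-values are two-sided and Benjamini-Hochberg adjusted over 13954 genes. Errors are standard errors for log2 fold changes and SD for levels. The fit was tested on simulated counts. Same-numbered replicates did not deviate together (correlations from -0.208 to 0.077), so no replicate block was used.

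The members and gene lists were chosen with earlier results of these data known. Named genes are the 8 members, Ppara, Ppard, Pparg and Rxra, up to 3 genes per list by smallest p in YSJZD against cisplatin, the 2 genes nearest to each member in profile, and close paralogs. Exceptions are stated where they occur. Some genes that this rule names are not reported here. Windows of 50 bases were taken from the longest GENCODE M21 coding transcript of each member. RSEM divides reads between similar transcripts, so paralogs are less certain than their errors show.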

Additional observations from a re-analysis of the deposited data

How the results depend on the processing

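The log2 fold change of each of the 8 members kept its direction in each comparison under DESeq2 size factors, library totals, no filter, a filter of 5 CPM in 3 libraries, DESeq2 1.42.0, limma-voom 3.58.1, a fit of only the 6 libraries compared, a replicate block, the deposited FPKM with a pseudocount of 1 in limma, or leaving out any library of the comparison. The gene lists were recomputed only with library totals, with DESeq2 size factors and without cisplatin replicate 3. With library totals the mitochondrial oxidation genes in YSJZD against control had 9 higher and 4 lower with a median of 0.13, against 5, 7 and -0.06. With DESeq2 size factors, genes called higher made up 48.6% of the calls between YSJZD and control, against 51.4%. On leaving out 1 library, members called between YSJZD and cisplatin ranged from 3 to 5, against 5 in all, and members called between YSJZD and control stayed at 8. Genes called between YSJZD and control ranged from 1607 to 2241, against 2694. Between YSJZD and cisplatin they ranged from 3496 to 4871, against 4942, and between cisplatin and control from 6576 to 7409, against 7616. With only the 6 libraries compared, Cd36 lost its call between YSJZD and cisplatin (0.59, adjusted p = 0.0843). With the replicate number as a block, 4590 genes were called between YSJZD and cisplatin, 2367 between YSJZD and control and 7348 between cisplatin and control, with 5 and 8 members called in the YSJZD comparisons, and no member's call changed. The numbers of the replicates did not pair the samples. Low counts limited Pparg and most adipocyte markers, which were under the filter or near 1 CPM. The cause of these shifts was not tested.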

Other observations

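Glucocorticoid-responsive genes are another set that fasting is known to raise. Of 11 tested, 6 were lower in YSJZD than in cisplatin and 1 was higher, with a median log2 difference of -0.62, beside background shares of 18.0% lower and 17.4% higher. Mt2, a metallothionein, averaged 228 CPM in YSJZD and 1529 CPM in cisplatin (log2 difference -2.75 ± 0.21, edgeR adjusted p = 4.54e-05), and Zbtb16, a transcription factor, 31.8 CPM in YSJZD and 96.5 CPM in cisplatin (-1.60 ± 0.24). Fam107a was the exception, with 70.7 CPM in YSJZD and 7.14 CPM in cisplatin. Against control, 4 of the 11 were higher in YSJZD and none was lower, with 2 lower at an unadjusted edgeR p under 0.05.

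Hypoxia-responsive genes, Hilpda among them, were called about as often as all genes. Of 16 tested, 3 were higher and 3 lower in YSJZD than in cisplatin, with a median log2 difference of 0.08, beside background shares of 17.4% higher and 18.0% lower. Vegfa, the vascular growth factor, averaged 139 CPM in YSJZD and 63.4 CPM in cisplatin, whereas Hk2, a hexokinase, averaged 1.60 CPM in YSJZD and 20.03 CPM in cisplatin.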
